A study of Mus musculus with 8 samples.

Results

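The effect of the miR-15 sponge was measured in pre-B cells deprived of interleukin 7 (IL-7), by setting 2 arrays of sponge cells against 2 arrays of scrambled control cells. These 4 arrays were chosen by their titles from the 8 arrays of the study, and the other 4 hold the same constructs with IL-7 present. All cells were wk3, a mouse pre-B cell line of genotype SLP-65-/-, which lacks the adaptor protein encoded by Blnk. All were infected with a retroviral vector, selected with puromycin, and grown in an excess of IL-7 supplied as the supernatant of IL-7-expressing J558L cells. The 4 arrays compared here came from cultures left without IL-7 for 36 h, which the study used to start pre-B cell differentiation. The sponge group carried a miR-15 sponge and the control group a scrambled sponge. The 2 replicates of a group came from separate experiments with clones generated anew for each, so each value stands on 2 clones of 1 line. Total RNA was labelled with Cy3 and hybridised to one-colour Agilent mouse arrays.

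A microRNA represses messenger RNAs that carry a match to its seed, the short stretch near its 5′ end. A sponge is an artificial transcript with many such matches, which occupies the microRNAs and so relieves their natural targets. The miR-15 family is known for repressing cyclins and other promoters of the cell cycle, and for repressing the survival factor Bcl2. IL-7 drives proliferation of pre-B cells through STAT5 and PI3K signalling, and its loss lets them leave the cycle, express the RAG recombinase and rearrange an immunoglobulin light chain gene. Below are 6 members of the family, shown for the seed they share. The mature sequences are from RefSeq (GRCm38.p6), written 5′ to 3′ with the seed, bases 2 to 8, in capitals.
miR-15a: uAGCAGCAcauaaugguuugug
miR-15b: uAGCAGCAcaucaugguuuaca
miR-16: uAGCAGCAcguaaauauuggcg
miR-195a: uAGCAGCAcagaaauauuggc
miR-322: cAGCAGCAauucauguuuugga
miR-497a: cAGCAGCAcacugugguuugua
All 6 carry the seed AGCAGCA and differ outside it. In the same reference 10 mature names carry this seed, among them miR-195b, which is not shown. Mir15a lies at chr14:61632075-61632096 on the minus strand beside one copy of miR-16, and Mir15b at chr3:69009775-69009796 on the plus strand beside the other.

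On the 8 arrays, 50.6% to 56.6% of 59305 spots carried the deposited mark for a signal well above background, 0 were saturated, and 21317 genes or annotated features were tested. Levels are given as log2 of the processed signal relative to the array's 75th percentile, so that 0 is the level of that percentile, and changes as sponge minus scrambled ± SE with n = 2 arrays a group. The threshold for a call was an adjusted p under 0.05 in limma, with the spread estimated over all 4 groups, and the p-values measure only the spread between these arrays. Across genes, the replicates of the cultures without IL-7 correlated with r = 0.997 (scrambled) and 0.996 (sponge). The 8 arrays shared 1 slide and 1 scan. The array barcodes give 2 position numbers on the slide. The second was 1 and 2 for the scrambled arrays without IL-7 and 3 and 4 for the sponge arrays. That position and construct therefore cannot be told apart. The arrays with IL-7 had the same order of constructs. Arrays with and without IL-7 differed in the slide's other position number, so that position and IL-7 cannot be told apart either. The Blnk probe gave 8.19 and 8.24 in scrambled and 7.69 and 7.66 in sponge cells, a high signal on every array. The position of that probe relative to the deletion is not known, so it does not check the genotype.

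Without IL-7, sponge cells held higher levels of genes for entering and completing the cell cycle, for making DNA precursors and for taking up and making amino acids. They held lower levels of the RAG recombinase and of many receptors and transcription factors of maturing B cells. Of the 21317 genes, 3570 were higher in sponge cells (16.7%) and 3270 lower (15.3%), 6840 or 32.1% in all. At 2-fold or more, 993 were higher (4.66%) and 553 lower (2.59%). At 4-fold or more the counts were 129 and 50. The median change over all genes was -0.05. The counts of each list below are to be read beside these shares of all genes, and no list was tested as a whole. The counts depended on single arrays, since 2165 were higher and 1250 lower without scrambled replicate 2, and 1705, 1716 and 1777 were lower without scrambled replicate 1, sponge replicate 1 or sponge replicate 2. Without scrambled replicate 2, 63.4% of the called genes were higher, against 52.2% with all arrays.

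Cyclin E1, the partner of CDK2 at the entry to S phase, stood out among the cell cycle regulators. Ccne1 was at 1.38 and 0.38 in the scrambled cells and at 4.15 and 4.06 in the sponge cells, so the groups were far apart. It rose by 3.22 ± 0.30 (limma, adjusted p = 0.0014). With IL-7 present, the scrambled arrays lay at 4.30 and 4.20 and the sponge arrays at 4.82 and 4.96, a difference of 0.64 that was not called. The probe that represents Ccne1, deposited with a position on mm9 of chr7:38882937-38882960 on the minus strand, holds a match to the seed of the family. Its 30 bases around the match, as deposited and with the match in capitals, are shown because the same letters return below in probes of other genes.
Ccne1 probe: attttgtaaggTGCTGCTatgtctatcaat
A second kept probe of Ccne1 holds no such match and gave 2.82 without IL-7 and 0.37 with it.

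Other drivers of the G1 to S transition rose as well, while the D-type cyclins and CDK6 were mixed. Of 22 cyclins, kinases and E2F factors of this step, 16 were higher and 3 lower, with a median of 0.94. E2f1, an activator of S phase genes, was at 0.76 and 0.34 in scrambled and 2.64 and 2.58 in sponge cells, and rose by 2.06 ± 0.14. The atypical repressors of the same family rose too, E2f8 by 2.15 and E2f7 by 2.06, the probes of E2f7 lying between 0.81 and 2.06. Skp2, which marks the CDK inhibitor p27 for degradation, rose by 1.59, Cdk2 by 1.45 and the CDK-activating phosphatase Cdc25a by 1.32. Smaller rises were measured for E2f3 (1.11), Cdk4 (0.80), Ccnd3 (0.66) and E2f2 (0.54). Cyclin D2 went the other way. Ccnd2 was at -0.55 and -0.38 in scrambled and -1.11 and -0.95 in sponge cells, and fell by 0.57. E2f5 (-0.61) and the E2F partner Tfdp2 (-0.63) were the other members that fell. Cdk6, at 0.51, was not called (limma, adjusted p = 0.056), though it was without scrambled replicate 1 (limma, adjusted p = 0.011). It was also called, at 0.35 to 0.58, after quantile normalization, after normexp background correction, in the deposited table and with probes above background on all 8 arrays (limma, adjusted p = 0.031 to 0.047). Ccnd2 lost its call with any 1 of the 4 arrays left out (limma, adjusted p = 0.058 to 0.127), and E2f2 without scrambled replicate 2 (limma, adjusted p = 0.068) or sponge replicate 1 (limma, adjusted p = 0.058).

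**Figure D1:**
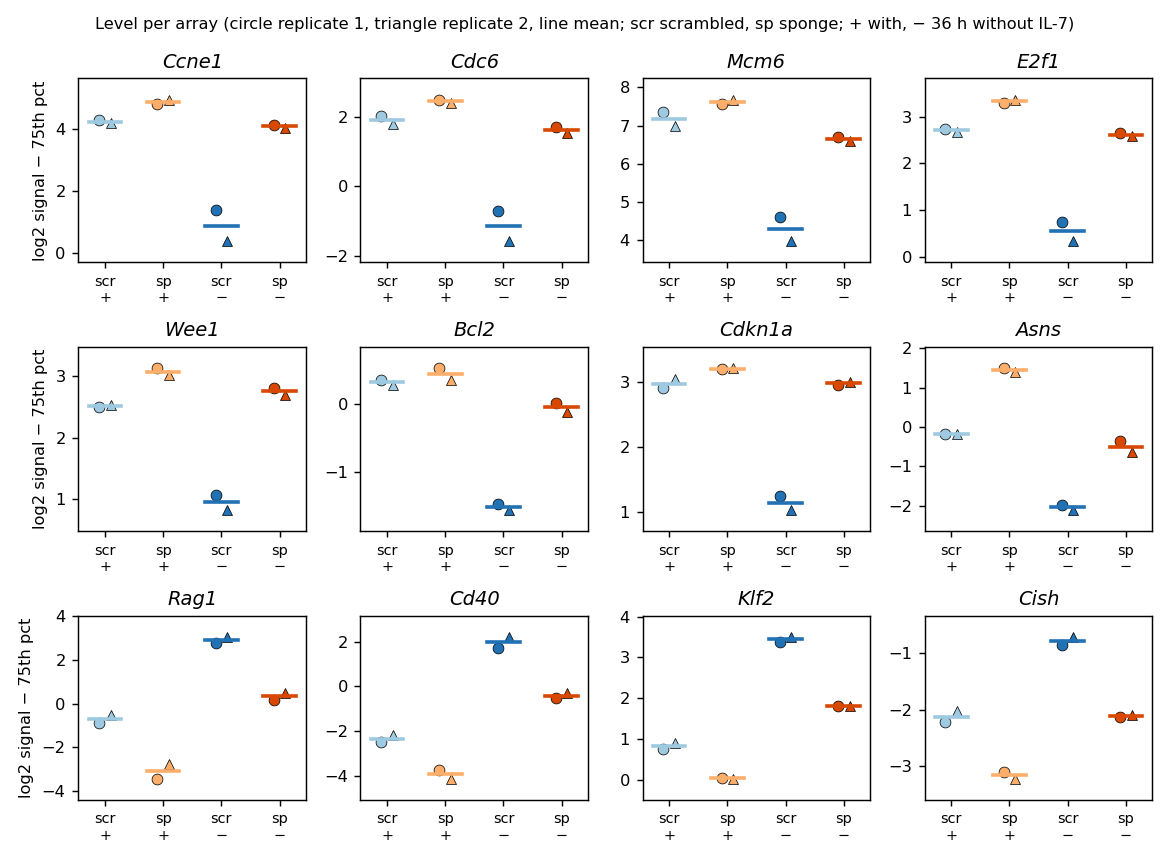
Level of 12 genes on each of the 8 arrays (vertical axis, log2 of processed signal relative to the array's 75th percentile); each point is 1 array, grouped by construct and by IL-7. Ccne1 stands at 1.38 and 0.38 in scrambled cells without IL-7 and above 4 on every other array, while Cd40 lies at 1.72 and 2.21 in scrambled and at -0.54 and -0.29 in sponge cells without IL-7.

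The machinery that copies DNA was higher almost as a whole. Of 40 measured DNA replication genes, 38 were higher and 0 lower, 32 of them by 2-fold or more, with a median of 1.84. Cdc6, which loads the replicative helicase onto origins, was at -0.72 and -1.58 in scrambled and 1.71 and 1.52 in sponge cells. It rose by 2.76 ± 0.27 (limma, adjusted p = 0.0016). Mcm6, a subunit of that helicase, was at 4.62 and 3.98 in scrambled and 6.70 and 6.61 in sponge cells, and rose by 2.36 ± 0.23. The scrambled arrays differed from each other by more than the sponge arrays did in both genes, and the groups did not overlap. Of the DNA polymerase alpha, origin and ligase genes, Pola1 rose by 2.55, Gins2 by 2.46, Lig1 by 2.43 and Orc1 by 2.36, and the sliding clamp Pcna rose by 1.84. The 2 members not called were Gins3 (0.16) and the primase subunit Prim2 (0.24), whose other probe gave 1.24 and whose mean over probes, 0.74, was called (limma, adjusted p = 0.034).

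Genes that act with the fork followed. All 14 replication-linked chromatin factors were higher, with a median of 1.74. Among them were the histone chaperones Chaf1a (2.28) and Asf1b (2.09), the chromatin remodeller Hells (2.06), the maintenance DNA methyltransferase Dnmt1 (1.94), the histone mRNA binding protein Slbp (1.84) and Uhrf1 (1.55), which brings Dnmt1 to newly copied DNA. The probe of Dnmt1 holds GCTGCTA, among the shared letters described below, and gave 0.19 with IL-7. Without probes holding those letters, 13 chromatin factors were tested and 13 were higher. All 21 homologous recombination and Fanconi genes were higher, with a median of 1.82. They included Brca1 (2.20), the exonuclease Exo1 (2.19), Fanca (2.00) and the helicase Brip1 (2.00). Of 23 nucleotide synthesis enzymes, 20 were higher and 0 lower, with a median of 1.24. The mitochondrial folate enzyme Mthfd2 rose by 2.36, Dut, which removes dUTP, by 2.26, Ctps by 1.89, the ribonucleotide reductase subunit Rrm2 by 1.88 and Tk1 by 1.71. Counts of these 4 lists moved by less than 1.5 times when any 1 array was left out.

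The promoters of the replication genes are shown because the genes moved together and E2F factors are known regulators of S phase genes. RefSeq promoters (GRCm38.p6), 250 bases before to 50 after the gene start, were searched on both strands for the E2F forms TTTCCCGC, TTTGGCGC and TTTCGCGC. One of these stood in 1.84% of all 32851 promoters, in 3.20% of those of tested genes, in 33.3% of 39 replication gene promoters (13) and in 10.8% of those of genes called 2-fold or more higher (77 of 716). For genes called 2-fold or more lower the share was 1.20%. The 39 replication promoters belong to 32 of the 40 replication genes. The windows of 30 bases below, read on the strand of the gene, hold the match in capitals.
Cdc6 (chr11:98908002-98908031, plus strand): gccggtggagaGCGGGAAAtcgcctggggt
Mcm6 (chr1:128359797-128359826, minus strand): tggcgtatgctTTTGGCGCgaaaagtgcgt
Pola1 (chrX:93632275-93632304, minus strand): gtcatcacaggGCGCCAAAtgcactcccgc
E2f7 (chr10:110745230-110745259, plus strand): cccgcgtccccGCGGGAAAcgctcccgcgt
Cdc6 and E2f7 carry the same form, and Mcm6 and Pola1 another on opposite strands. The Ccne1 promoter window holds none of the 3 forms, and the search gave no match for E2f1, E2f8, Gins2 or Pcna either. These are matches of letters and show no binding.

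**Figure D2:**
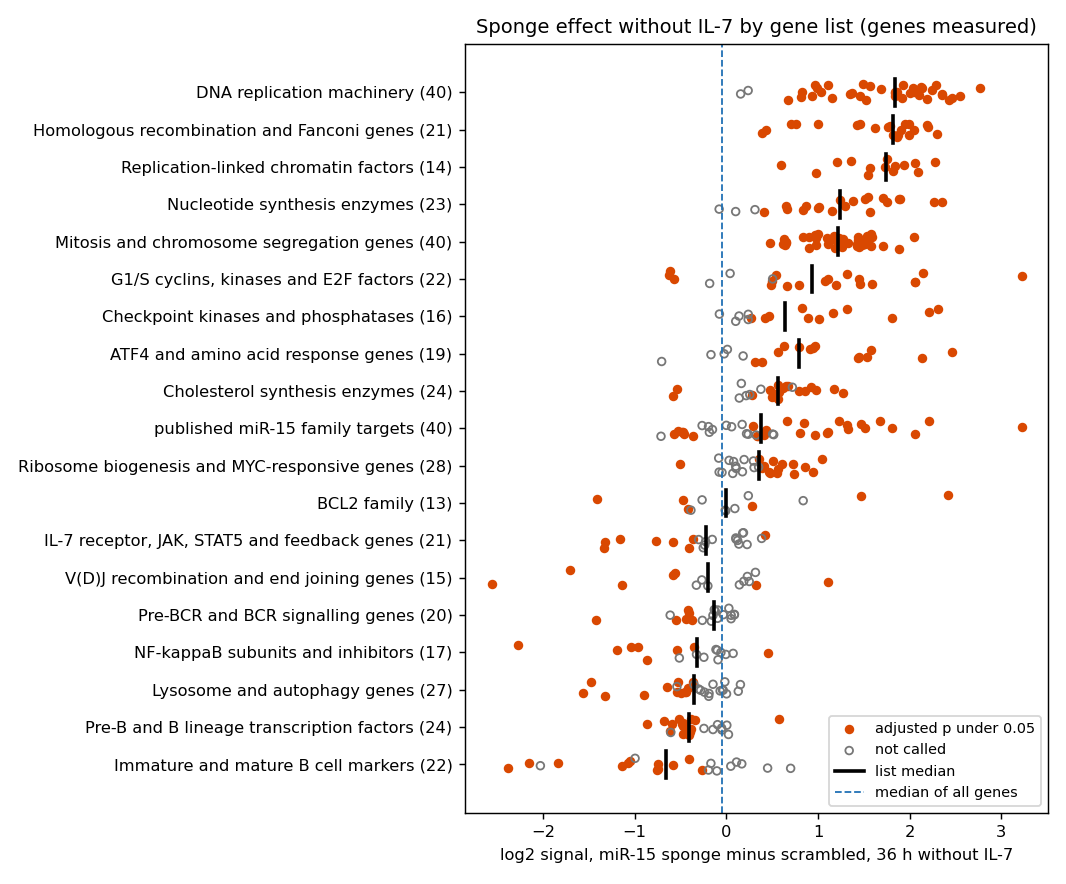
Change of each measured member of the gene lists in sponge minus scrambled cells without IL-7 (horizontal axis, log2), 1 row of points a list with the list's median marked. The lists for replication, chromatin, recombination repair and mitosis lie to the right of 0, and those for B cell transcription factors and mature B cell markers mostly to the left.

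Checkpoint genes, listed as checkpoint kinases and phosphatases, were also higher where they were called. Of 16, 11 were higher and 0 lower, with a median of 0.65. Wee1, the kinase that inhibits CDK1 and CDK2, was at 1.07 and 0.83 in scrambled and 2.81 and 2.70 in sponge cells. It rose by 1.81 ± 0.10 (limma, adjusted p = 0.0011). Its relative Pkmyt1 rose by 2.31, the adaptor Clspn by 2.21, Chek2 by 1.16 and Topbp1 by 1.01. Chek1 was at -3.23 and -3.65 in scrambled and -3.22 and -3.19 in sponge cells, and was not called (0.24).

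All 40 mitosis and chromosome segregation genes were higher, with a median of 1.22. Of the transcription factors of this programme, Mybl2 rose by 1.88 and Foxm1 by 1.71. The DNA topoisomerase Top2a rose by 1.58, the spindle checkpoint kinase Ttk by 1.57, the spindle protein Nusap1 by 1.52 and the cytokinesis motor Kif23 by 1.23. Birc5 (1.1) and the proliferation marker Mki67 (0.90) rose less. The kinase gene Aurkb, not well above background on the scrambled arrays, was at least 1.47-fold higher. Its call was lost at 0.11 after normexp background correction (limma, adjusted p = 0.483). Here and below, "at least" raises signals of the group not above background to the lowest signal above it on the same array. Signals already over that lowest one keep their value, and the bound holds for this scaling only. Mitotic promoters are known for a CHR element, TTTGAA, often near a CCAAT box. On both strands, TTTGAA stood in 75.7% of 37 mitosis gene promoters against 17.9% of all promoters, and CCAAT in 75.7% against 37.4%. These 37 promoters belong to 35 of the 40 genes. Examples with the CHR match in capitals follow.
Ttk (chr9:83834684-83834713, plus strand): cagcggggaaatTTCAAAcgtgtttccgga
Kif23 (chr9:61946780-61946809, minus strand): ctgattggcctgTTTGAAatgcgccgggcg
Spag5 (chr11:78301582-78301611, plus strand): gtgcgtattgggTTCAAAtagaggcggcgg
Kif23 has the element on the strand of the gene, and Ttk and Spag5 on the other.

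The published targets of the miR-15 family did not all move one way. Of 40 measured of 42, 21 were higher and 6 lower, 12 higher by 2-fold or more, with a median of 0.38. Of all genes, 16.7% were higher, 4.66% by 2-fold or more, and 15.3% lower, so the 6 lower targets lie near the share of all genes. The list was drawn from general knowledge and shares Ccne1, Wee1, Cdc25a, E2f3, E2f7, Skp2 and others with the lists above. Among the targets outside the cell cycle, Arl2, a small G protein, was at -0.23 and -0.30 in scrambled and 1.41 and 1.43 in sponge cells, and rose by 1.68 ± 0.10. It was also called with IL-7 (1.12, limma, adjusted p = 0.013), the only target called there. Bcl2, which blocks mitochondrial cell death, was at -1.47 and -1.56 in scrambled and 0.02 and -0.11 in sponge cells. It rose by 1.47 ± 0.09, against 0.12 with IL-7. The spindle protein Spag5 (1.33), the angiogenic factor Vegfa (0.85) and the mitochondrial carrier Ucp2 (0.80) rose too. The Wnt feedback gene Axin2, not well above background on the scrambled arrays without IL-7, rose by 0.96 (1.95-fold). With 1 array without IL-7 left out the rise was 0.75 to 1.18. Its call was lost with the replicate as a block (limma, adjusted p = 0.066). The call was also lost with any 1 array without IL-7 or either scrambled array with IL-7 left out. It was also lost at 0.10 after normexp background correction (limma, adjusted p = 0.517) and with no filter on dim probes (limma, adjusted p = 0.087). Rises under 0.5 included the phosphatase Ppm1d (0.43) and the chromatin protein Hmga1 (0.41, its probes from -0.07 to 0.73), and both lost their call without scrambled replicate 1, scrambled replicate 2 or sponge replicate 1 (limma, adjusted p = 0.062 to 0.076). Targets that fell included the transcription factor Myb (-0.48), the insulin receptor Insr (-0.46), the activin receptor Acvr2a (-0.52) and Ccnd2. Acvr2a lost its call with any 1 array without IL-7 left out (limma, adjusted p = 0.056 to 0.104), and Insr without either scrambled replicate or sponge replicate 2 (limma, adjusted p = 0.052 to 0.055). Jun was at -0.71 without a call (limma, adjusted p = 0.076). It was called at -0.82 after quantile normalization (limma, adjusted p = 0.040), at -0.81 in the deposited table (limma, adjusted p = 0.043), and at -0.71 with only the 4 arrays without IL-7 (limma, adjusted p = 0.011) or with either scrambled array with IL-7 left out (limma, adjusted p = 0.0094). The 6 that fell were 1 without scrambled replicate 1, scrambled replicate 2 or sponge replicate 2, 3 without sponge replicate 1, and 3 with no filter on dim probes.

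Seed matches were also looked for in the array probes themselves, which cover only a small piece of each transcript. A seed match, taken as TGCTGCT or as the letters GCTGCTA, stood in the probe of 284 of all tested genes (1.33%) and of 21 of the 993 called 2-fold or more higher (2.11%). Over all tested genes, the median change was 0.10 with a match and -0.05 without. The 21 had a median change of 2.54 without IL-7 and 2.07 with it. They include Pth, Npas1, Il31ra, Cfap45, Rxfp3 and Cblc, whose probes return below among those 4-fold or more apart in both cultures. No untranslated region sequence was used here.

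Amino acid supply and lipid synthesis genes rose, and other growth genes were divided. Of 19 measured ATF4 and amino acid response genes, 14 were higher and 0 lower, with a median of 0.80. Asns, the asparagine synthetase, was at -1.97 and -2.10 in scrambled and -0.37 and -0.63 in sponge cells. It rose by 1.54, and by 1.63 with IL-7. The arginine transporter Slc7a1 rose by 2.13, the glutathione-degrading enzyme Chac1 by 1.58 (2.03 with IL-7), the leucine transporter subunit Slc7a5 by 1.44 (its probes from 0.14 to 1.44) and the serine synthesis enzyme Psat1 by 1.43. The transcription factor Cebpb was at least 2.06-fold higher, a call lost at 0.21 after normexp background correction (limma, adjusted p = 0.125). Trib3, an inhibitor of ATF4 and AKT chosen after its values were seen, rose by 0.97 without IL-7 and by 1.88 with it. With IL-7, 6 genes of this list were called higher, among 67 of all genes (0.314%).

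Of 24 cholesterol synthesis enzymes, 16 were higher and 2 lower, with a median of 0.57. They included Fdps (1.27), Sqle (1.18) and Idi1 (0.98). Ribosome biogenesis genes had 14 of 28 higher and 1 lower, with a median of 0.36, and the count of 14 was 9 without scrambled replicate 1 or sponge replicate 1. The nucleotide kinase Nme1 (1.05), the spermidine synthase Srm (0.95) and nucleolin, Ncl (0.86), led it, and Ppan fell by 0.51. Among MYC and MAX network factors, Myc was at -2.96 and -3.07 in scrambled and -2.02 and -1.93 in sponge cells and rose by 1.04, Mycn rose by 1.07 and the MAX partner Mxd3 by 1.73. Of these 11 factors, 3 were higher and 5 lower, among the latter Mlxip (-1.0), and the 5 became 2, 1, 2 and 3 without scrambled replicate 1, scrambled replicate 2, sponge replicate 1 and sponge replicate 2. Of 17 glycolysis genes, 8 were higher and 2 lower, with Aldoc (1.06), Gapdh (0.76) and Pgk1 (0.74) up and Aldoa down (-1.08). In that same order of arrays left out, the 8 became 4, 4, 5 and 5. The unfolded protein response had 9 of 19 higher and 3 lower, led by Sdf2l1 (1.21), with the sensor kinase gene Eif2ak3 at -0.84. Its 9 became 3, 2, 3 and 5.

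CDK inhibitors and quiescence genes did not move one way. Of 17, 6 were higher and 6 lower, with a median of -0.14, and the 6 lower became 3, 2, 3 and 3 without scrambled replicate 1, scrambled replicate 2, sponge replicate 1 and sponge replicate 2. Cdkn1a, which encodes p21, was at 1.25 and 1.03 in scrambled and 2.95 and 3.00 in sponge cells, and rose by 1.83, its probes lying between 0.37 and 1.83. The pocket protein gene Rbl1 rose by 1.78, Cdkn2c by 1.35 and Cdkn2a by 1.02. Klf2, which keeps lymphocytes quiescent, was at 3.38 and 3.50 in scrambled and 1.81 on both sponge arrays, and fell by 1.63 ± 0.08. The antiproliferative genes Btg2 (-0.94) and Btg1 (-0.68) and the p27 gene Cdkn1b (-0.37) fell as well. Cdkn1b lost its call with any 1 array without IL-7 left out (limma, adjusted p = 0.052 to 0.112), and Btg2 without scrambled replicate 2 (limma, adjusted p = 0.076) or sponge replicate 1 (limma, adjusted p = 0.071).

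Of 20 p53 regulators and targets, 3 were higher and 6 lower, with Phlda3 at 1.24 and Plk2 at -0.97, and the 6 became 3 without sponge replicate 2. Plk2 lost its call without scrambled replicate 1 or sponge replicate 2 (limma, adjusted p = 0.067 for each). Of 13 BCL2 family genes, 3 were higher and 3 lower. Bok (2.42) and Bcl2 rose, while the BH3-only gene Bmf (-1.41), Bcl2l1 (-0.48) and Mcl1 (-0.42) fell, and Bcl2l11, which encodes BIM, was at 0.84 without a call. The 3 that fell became 1 without scrambled replicate 2, sponge replicate 1 or sponge replicate 2, where Bcl2l1 and Mcl1 lost their call (limma, adjusted p = 0.063 to 0.102). Of 17 measured heat shock and immediate early genes, 4 were higher, including Atf3 (1.75) and Dusp1 (1.52), and 4 lower, including Hspa1a (-1.48) and Ier3, at least 2.70-fold lower. The 4 lower became 1 without scrambled replicate 2 or sponge replicate 1, where Hspa1a lost its call (limma, adjusted p = 0.058 and 0.051).

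The genes of light chain recombination were lower in sponge cells in their catalytic core. Rag1 was at 2.75 and 3.04 in scrambled and 0.17 and 0.50 in sponge cells. It fell by 2.56 ± 0.27 (limma, adjusted p = 0.0017), and by 2.39 with IL-7 (limma, adjusted p = 0.025). Rag2, its partner, was at 1.87 and 2.08 in scrambled and 0.07 and 0.46 in sponge cells and fell by 1.71, and by 1.56 with IL-7. The hairpin-opening nuclease Dclre1c fell by 1.14, the histone gene H2ax rose by 1.11 and the terminal transferase Dntt was not called (-0.20), though it was after quantile normalization (-0.35, limma, adjusted p = 0.017) and in the deposited table (-0.36, limma, adjusted p = 0.016). In all, 5 of 15 V(D)J recombination and end joining genes were lower and 2 higher. The kappa constant region Igkc, by contrast, was at -1.33 and -1.12 in scrambled and -1.35 and -1.43 in sponge cells, and its difference of -0.17 was not called (limma, adjusted p = 0.49).

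Markers of immature and mature B cells were lower where they changed. Of 22 measured of 26, 0 were higher and 12 lower, 6 by 2-fold or more, with a median of -0.66. The co-stimulatory receptor Cd40 was at 1.72 and 2.21 in scrambled and -0.54 and -0.29 in sponge cells, and fell by 2.38 ± 0.22 (limma, adjusted p = 0.0014; -1.60 with IL-7). Ltb, which encodes lymphotoxin beta, was at 5.06 and 5.16 in scrambled and 3.22 and 3.34 in sponge cells and fell by 1.83. The IgM Fc receptor gene Fcmr (-2.15), the egress receptor S1pr1 (-1.14), Ly6d (-1.08), the inhibitory Fc receptor Fcgr2b (-1.05) and the invariant chain Cd74 (-0.75) fell too. Cd74 lost its call with any 1 array without IL-7 left out (limma, adjusted p = 0.065 to 0.136). The MHC class II genes themselves were not called, with H2-Aa at 0.70, H2-Eb1 at 0.17, H2-DMa at -0.19 and their activator Ciita at 0.45, though H2-Aa was called without scrambled replicate 2 (limma, adjusted p = 0.031). Ciita was called at the same value with only the 4 arrays without IL-7 (limma, adjusted p = 0.030) or with either scrambled array with IL-7 left out (limma, adjusted p = 0.022). Ms4a1, the CD20 gene, was at -2.03 without a call (limma, adjusted p = 0.094) and was called at -1.38 after normexp background correction (limma, adjusted p = 0.0082). The 12 lower genes became 9, 8, 8 and 8 without scrambled replicate 1, scrambled replicate 2, sponge replicate 1 and sponge replicate 2.

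Homing and activation genes fell beside them. Of 13 homing and egress receptors, 6 were lower and 1, S1pr2 (0.95), higher, though not after normexp background correction (limma, adjusted p = 0.079). Cd69, which holds lymphocytes in tissue, was at 2.20 and 2.51 in scrambled and 0.51 and 0.45 in sponge cells and fell by 1.87, while with IL-7 its difference was 0.11, higher in sponge cells. Of 17 NF-kappaB subunits and inhibitors, 7 were lower and 1, the adaptor Traf2 (0.46), higher, though not as the mean of its probes (limma, adjusted p = 0.565). They included the coactivator Bcl3 (-2.28), the inhibitors Tnfaip3 (-1.19), Nfkbiz (-1.04) and Nfkbie (-0.97), and the subunit Nfkb2 (-0.54). The counts of lower genes in the homing and NF-kappaB lists moved by less than 1.5 times when any 1 array without IL-7 was left out.

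Transcription factors of the B lineage were lower by smaller steps. Of 24, 15 were lower and 1, Id3 (0.58), higher, with a median of -0.40. Relb fell by 0.86, the Ikaros family member Ikzf3 by 0.61 and Pax5, which commits cells to the B lineage, by 0.60. The 15 became 7, 2, 6 and 4 without scrambled replicate 1, scrambled replicate 2, sponge replicate 1 and sponge replicate 2, and 8 with no filter on dim probes. Pax5 lost its call with any 1 of these arrays left out (limma, adjusted p = 0.055 to 0.063). In the pre-BCR and BCR signalling list, 6 of 20 were lower and 0 higher, including the adaptor Bank1 (-1.43) and the BCR subunit Cd79b (-0.41). The surrogate light chain genes Vpreb1 (-0.12) and Igll1 (-0.13) were not called. The 6 became 2 without scrambled replicate 2, where Cd79b lost its call (limma, adjusted p = 0.055), and 3 without sponge replicate 1.

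Cish and Socs1, feedback inhibitors of cytokine signalling, fell in sponge cells. Of 21 genes of the IL-7 receptor, JAK and STAT5 pathway, 7 were lower and 1, the kinase Pim3 (0.43), higher. Cish was at -0.85 and -0.71 in scrambled and -2.13 and -2.09 in sponge cells and fell by 1.33, and by 1.04 with IL-7. Socs1 (-1.32), Il2ra (-1.16) and the kinase Pim2 (-0.77) fell, and Il7r itself was at 0.14 without a call. Pim3 lost its call with any 1 array without IL-7 left out (limma, adjusted p = 0.071 to 0.091), and Pim2 without scrambled replicate 2 (limma, adjusted p = 0.087) or sponge replicate 1 (limma, adjusted p = 0.074). The 7 became 4, 3, 4 and 4 without scrambled replicate 1, scrambled replicate 2, sponge replicate 1 and sponge replicate 2. Of 19 FoxO and PI3K pathway genes, 7 were lower and 2 higher. The lower ones include the PI3K inhibitor Pik3ip1 (-0.89) and Ddit4 (-0.83, and -1.09 with IL-7), an inhibitor of mTORC1. In the same order those 7 became 3, 3, 4 and 3, and they were 11 after quantile normalization.

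Of 27 lysosome and autophagy genes, 12 were lower and 0 higher, with a median of -0.35. The autophagosome protein gene Gabarapl1 fell by 1.56, the sialidase Neu1 by 1.47, the protease Ctss by 1.32, the glucosidase Gaa by 0.90 and the autophagy receptor Sqstm1 by 0.65. The 12 became 5 without scrambled replicate 2 and 7 without either sponge replicate. Of 19 interferon-stimulated genes, 6 were lower, including Gbp2 (-0.84) and Irf9 (-0.76), and 1, Ifit2 (0.54), higher. These 6 became 3 without scrambled replicate 1 and 2 without scrambled replicate 2. Ifit2 lost its call without scrambled replicate 2 (limma, adjusted p = 0.079) or sponge replicate 1 (limma, adjusted p = 0.070). Among 9 measured plasma cell markers, 2 were higher, led by the syndecan Sdc1 (1.37), and 3 lower, which became 0 without scrambled replicate 2 and 1 without either sponge replicate.

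Genes for making and loading microRNAs were divided. Of 13, 3 were higher, the Microprocessor subunits Dgcr8 (1.16) and Drosha (0.36) and the Dicer partner Tarbp2 (0.69), and 4 lower, among them the effector gene Ago2 (-0.40). Drosha lost its call with any 1 array without IL-7 left out (limma, adjusted p = 0.068 to 0.100), and Ago2 without scrambled replicate 2 or either sponge replicate (limma, adjusted p = 0.0504 to 0.104). Ago2 also lost it with no filter on dim probes (limma, adjusted p = 0.0507) and as the mean of its probes, at -0.18 (limma, adjusted p = 0.155). Dicer1 was at -0.15 without a call, and was called after quantile normalization (-0.24, limma, adjusted p = 0.031) and in the deposited table (-0.23, limma, adjusted p = 0.036). The 4 lower became 1, 0, 1 and 1 without scrambled replicate 1, scrambled replicate 2, sponge replicate 1 and sponge replicate 2, were 0 with no filter on dim probes and 7 after quantile normalization. Without probes holding the shared letters described below, 12 genes of this list were tested and 2 were higher. Smc4, a condensin gene whose transcript carries miR-15b and a copy of miR-16, rose by 1.00. The transcript Dleu2, which carries miR-15a and the other copy, was at -0.08 without a call. The arrays measure messenger RNA and not the mature microRNAs.

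The cells were checked against markers of their own type and of others. All 14 pre-B cell markers were well above background on all 4 arrays, with a summed signal of 2167 to 2193 times the array's 75th percentile in scrambled and 1919 to 1930 times in sponge cells. Of these, 7 were lower and 1 higher, and the 7 became 2 without scrambled replicate 2 and 4 without sponge replicate 1. Of 9 T cell markers measured, Cd3g, Cd8a and Cd8b1 were above background on none of the 4 arrays, and 5 on all 4 (Cd28, Cd3e, Cd4, Cd5 and Lck). The summed signal was 19.7 to 19.99 in scrambled and 14.0 to 14.5 in sponge cells. Of 14 myeloid markers, Cd14, Ly6g, Lyz2, S100a8 and S100a9 were above background on none. On all 4 arrays, 8 were above it (Adgre1, Cd68, Csf1r, Csf3r, Elane, Fcgr3, Itgam and Mpo), and the sums were 209 to 222 and 185 to 191. Of 9 NK cell markers, Eomes, Klrk1 and Ncr1 were above background on none, and 5 on all 4 (Gzma, Klrb1c, Klrd1, Nkg7 and Prf1). Their sums were 3.41 to 3.56 and 3.21 to 3.54. Of 10 erythroid and mast cell markers, Gata1 and 5 others were above background on none, and Epor and Tfr2 on all 4. The sums were 0.363 to 0.379 and 0.337 to 0.358. Of 10 stromal markers, Col1a1, Pdgfra and 6 others were above background on none, and Col1a2 and Vim on all 4. The sum, 25.2 to 26.3 and 41.5 to 44.9, lies mainly in Vim, which rose by 0.75. Fewer cells of a kind and less RNA per cell cannot be told apart in these values, and whether the makeup of the cultures bears on the changes was not tested.

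The same sponge gave far fewer calls with IL-7 present, where 241 genes passed (1.13%), 67 higher and 174 lower (0.816%). That count rested on single arrays, being 1361 without scrambled replicate 2 with IL-7, 155 without its replicate 1, 38 and 40 without sponge replicates 1 and 2 with IL-7, and 83 to 93 without 1 of the arrays lacking IL-7. The median size of a change, taken without its sign, was 0.17 with IL-7 and 0.28 without. The group of scrambled cells with IL-7 was the most variable, with replicates over 1 log2 unit apart in 1169 genes, against 361 and 193 genes for the sponge and scrambled groups compared here. Of the 241, 225 were called without IL-7 in the same direction and 0 in the opposite one, where 32.1% of all genes were called in either direction. The calls in the 2 cultures use the same estimate of spread for each gene, so they are not independent. Without the probes that hold the shared letters described below, the count of 241 was 166. The constructs had the same second position numbers on the slide in both cultures, so that position and construct cannot be told apart in this overlap either. From the cultures with IL-7 to those without, where slide position and IL-7 cannot be told apart, the replication genes fell by a median of 2.25 log2 units in scrambled and 0.72 in sponge cells. The recombination repair genes fell by 2.06 and 0.59, and the mitosis genes by 1.45 and 0.32. These medians share arrays with the values above and are given to show on which side the groups moved. With IL-7, the median sponge effect was 0.40 for replication, 0.31 for chromatin, 0.13 for mitosis and 0.49 for amino acid response genes.

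The difference between the sponge effects without and with IL-7 was itself tested, as an interaction, and the outcome depended on the fit. With all arrays, 1124 genes were called (5.27%), 921 with a more positive effect without IL-7 (4.32%) and 203 with a more negative one (0.952%). Of the 40 replication genes 33 were among the former, of the 40 mitosis genes 27, of the 21 recombination repair genes 17 and of the 14 chromatin factors 12. With the replicate as a block, limma called 0, with 5103 genes at an unadjusted p under 0.05 and a smallest adjusted p of 0.0508. The count was also 0 with no filter on dim probes (limma, 4742 at an unadjusted p under 0.05), and 0 without scrambled replicate 2, sponge replicate 1 or sponge replicate 2 of the cultures without IL-7 or either sponge replicate with IL-7. It was 12 without scrambled replicate 1 with IL-7. For Ccne1 the interaction was 2.58 and for Cdc6 2.22. For Cd69 it was -1.98. The interactions of Rag1 (-0.17) and Asns (-0.09) were not called.

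**Figure D3:**
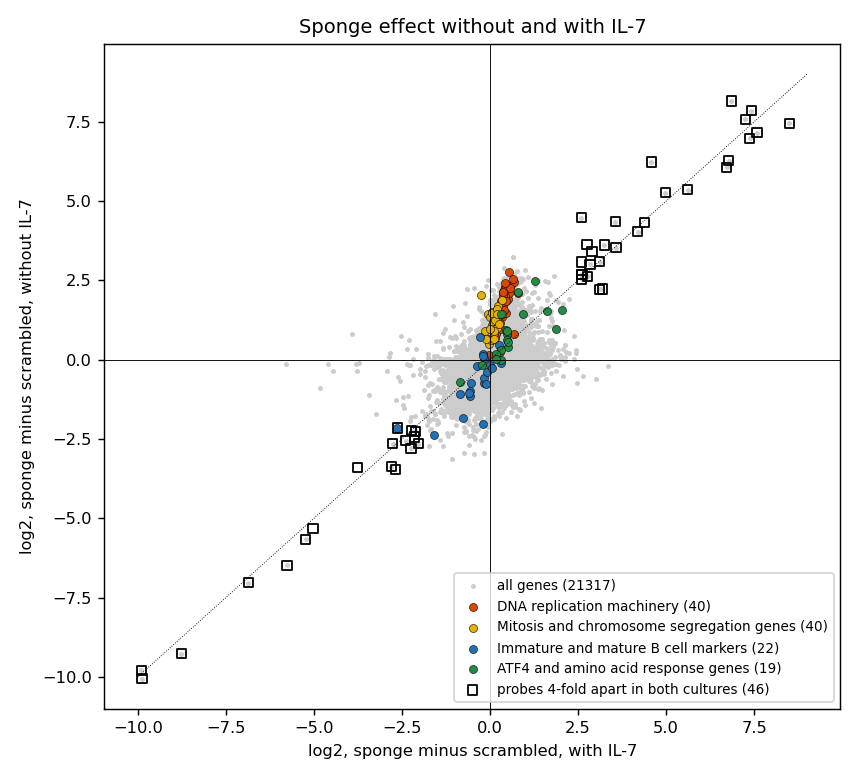
Sponge minus scrambled change with IL-7 (horizontal axis, log2) against the change without IL-7 (vertical axis, log2), 1 point a gene, with 4 gene lists in colour and the probes 4-fold or more apart in both cultures as squares. Ccne1 lies at 0.64 and 3.22, Rag1 at -2.39 and -2.56 and Asns at 1.63 and 1.54. The replication genes have medians of 0.40 and 1.84.

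The largest changes of all were of another kind, since they were measured in both cultures and in genes best known from other tissues. Pth, the parathyroid hormone gene, was at -3.88 and -7.43 in scrambled cells, well above background on 1 of the 2 arrays, and at 2.40 and 2.60 in sponge cells. Its difference was 8.15 ± 1.92, and 6.85 with IL-7, and its call was lost with no filter on dim probes (limma, adjusted p = 0.053) and without scrambled replicate 2 or either sponge replicate (limma, adjusted p = 0.095 to 0.124). Npas1, a neuronal transcription factor, differed by 7.86, the gap junction gene Gjd3 by 6.98 and the cartilage matrix gene Comp by 6.23, and Il31ra was at least 32.2-fold higher. Npas1 and Comp were well above background on 1 of the 2 scrambled arrays, as Pth was, so these sizes rest in part on signal near background. In the other direction, Coro2a was at 5.09 and 5.05 in scrambled and -5.02 and -4.94 in sponge cells, so that it fell by 10.05 on the log2 scale, while another of its probes gave -0.78 without a call (limma, adjusted p = 0.216). Glra4 was at least 478-fold lower. At 4-fold or more in both cultures there were 28 kept probes higher and 18 lower.

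The sequences of these probes had letters in common, which are shown because the probes were chosen by size of change and not by sequence. Of the 28 probes higher in both cultures, 21 (75%) held the letters CTGCTGC or the letters GCTGCTA, the seed match TGCTGCT, or further the letters GCTACCG or the letters ACCGTGC, against 2.00% of all 30954 kept probes, and 10 (35.7%) held TGCTGCT or the letters GCTGCTA, against 1.30%. Of the 18 lower ones, 10 (55.6%) held ACCTCAC or CTCACCA, against 0.892%. Of 125 probes 4-fold or more higher without IL-7 only, 2 (1.6%) held the first set. The letters were chosen after these values were seen, so the shares are a description. Each window is 30 bases of a probe with the shared letters in capitals, and the position is that of the whole probe on mm9, as deposited.
Pth, higher (probe at chr7:120529242-120529301): ctgacataTGCTGCTAccttttcaagctta
Npas1, higher (probe at chr7:17046680-17046739): aGCTGCTAccagtttgttcatggacaggat
Gjd3, higher (probe at chr11:98843494-98843553): cgtcgctgGCTACCGTGCgccaggacctgg
Comp, higher (probe at chr8:72905692-72905825): ctgcGCTACCGttgcaatgatacaatccct
Coro2a, lower (probe at chr4:46556251-46556310): atggagaaACCTCACctgacctacctgacc
Glra4, lower (probe at chrX:133297405-133301779): ccacagtcCTCACCAtgacaactcagagct
The probes of the genes that were higher share GCTGCTA or GCTACCG, and those that were lower ACCTCAC or CTCACCA. Whether transcripts of the constructs themselves bind such probes was not tested. Adap2 (5.27) is among the 28 without such letters, and Rag1, Fcmr, Myo7a and Klrd1 are among the 18 without them. Trim68 (1.75) and Pabpc4 (1.57), chosen after their values were seen, hold a seed match in their probes too and gave 2.07 and 1.06 with IL-7. The counts of higher and lower genes without probes holding these letters were 3466 and 3213, against 3570 and 3270 with them. With IL-7 the count of called genes was 166, against 241. In the p53 list 2 of 19 genes were then higher, and in the glycolysis list 1 of 16 lower.

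Large changes without IL-7 were also measured in other genes, most of them in none of the lists. Cdca7, a chromatin factor, rose by 2.70, Samd1 by 2.61, Aunip by 2.58, Tyms-ps, a thymidylate synthase copy whose probe may not be told from Tyms, by 2.55, and Tcf19 by 2.54. Bcat1, a branched-chain amino acid transaminase, rose by 2.47 and the nutrient-sensing kinase Pask by 2.46. Large falls were measured for the myosin Myo7a (-2.80, and -2.24 with IL-7), the NK receptor subunit and NK cell marker Klrd1 (-2.65, and -2.04 with IL-7), the histone demethylase Kdm5b (-2.30, its probes from -2.30 to -0.35) and the amino acid oxidase Il4i1 (-2.29).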

How the data were processed

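Of 8 deposited one-colour array tables, each from 1 culture, the 4 without IL-7 make the comparison and the 4 with IL-7 add to the estimate of spread. Per the file headers, the deposited signal is an intensity on a linear scale that the authors extracted with Agilent Feature Extraction (10.7.3.1 in the headers, 10.7.1.1 in the submitters' processing notes), background subtracted and detrended within each array. The deposited value table, also intensity, served as an alternative. Here control spots and spots marked as outliers were left out (128 to 277 an array), log2 was taken relative to each array's 75th percentile (297 to 410, over a local background of 17 to 20), and the filter kept the 30954 of 55681 probes that both arrays of some group marked as well above background. Probes were named through RefSeq, 27325 by accession, 3523 by symbol and 551 by synonym, and 24282 had no match, of which 16194 carry the name of a region. The kept probe with the highest mean stood for its gene. Group means were fitted with limma 3.58.1 in R 4.3.3, two-sided, with Benjamini-Hochberg adjustment over 21317 genes, and the procedure was tested on simulated data. The median SE was 0.12 and the number of arrays limits the precision.

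The study's design text gives 2 independent experiments, so replicate numbers pair the groups on that text alone, and the deviations of same-numbered arrays correlated with 0.0177 to 0.131. The groups, gene lists and naming rule were chosen with earlier results of these data known. Named genes are the 15 largest rises and falls, the 5 of each direction with a group not above background, up to 6 called members in each direction and 4 not called of every list, all published targets, host genes and markers, a set of regulators, and the 5 largest interactions in each direction. Not all are printed, and a few items are not reported here. Alternatives were 3 other scalings or background corrections, 2 other filters, the mean of a gene's probes, the 4 arrays alone, a replicate block, each array left out, and, chosen after seeing the data, no probes with the shared letters.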

Additional observations from a re-analysis of the deposited data

Results flagged for a closer look

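The sponge effect differed between the cultures without and with IL-7 for 1124 genes in the test of that difference (limma, adjusted p under 0.05, smallest 0.0307). Values below are the log2 effect without IL-7 minus that with IL-7, for the genes named above. Genes with a group without IL-7 not above background are left out. With the replicate as a block, limma called 0 of them (smallest adjusted p = 0.0508, 5103 at an unadjusted p under 0.05), and the cause of the differences was not tested. Among replication and chromatin genes, the interaction was positive for Cdc6 (2.22), Tcf19 (2.18), Cdca7 (2.10), Samd1 (2.09), Lig1 (2.00), Chaf1a (1.96), Mcm6 (1.91), Pola1 (1.89), Gins2 (1.78), Orc1 (1.77), Asf1b (1.77), Dnmt1 (1.76), Hells (1.52), Pcna (1.46), Slbp (1.41) and Uhrf1 (1.12). The recombination repair and checkpoint genes gave positive interactions for Clspn (1.86), Exo1 (1.80), Pkmyt1 (1.78), Brca1 (1.76), Fanca (1.73), Brip1 (1.70), Wee1 (1.25), Chek2 (0.97) and Topbp1 (0.71). Of the G1/S genes, positive values were measured for Ccne1 (2.58), E2f7 (1.75), E2f8 (1.68), E2f1 (1.44), Skp2 (1.33), Cdk2 (1.12) and Cdc25a (0.80). For nucleotide synthesis genes, they were Tyms-ps (2.13), Dut (1.83), Mthfd2 (1.78), Rrm2 (1.65), Tk1 (1.52) and Ctps (1.40). For the mitosis genes named, the interaction was positive for Mybl2 (1.54), Foxm1 (1.47), Top2a (1.38), Ttk (1.37), Nusap1 (1.35), Spag5 (1.33), Kif23 (1.1) and Birc5 (1.03). In CDK inhibitors, survival genes and MYC network factors, positive values were those of Bok (2.09), Mxd3 (1.68), Cdkn1a (1.61), Rbl1 (1.46), Bcl2 (1.35), Cdkn2c (1.12), Myc (1.1), Cdkn2a (0.78) and Phlda3 (0.61). Genes of metabolism, stress and other functions with positive values were Pask (2.03), Dusp1 (1.34), Slc7a1 (1.33), Sdc1 (1.20), Bcat1 (1.12), Psat1 (1.11), Sdf2l1 (1.1), Atf3 (0.97), Ucp2 (0.92), Dgcr8 (0.89), Aldoc (0.86), Fdps (0.84), Sqle (0.79), Nme1 (0.76), Gapdh (0.62) and Pgk1 (0.61). A more negative sponge effect without IL-7 was called for Cd69 (-1.98), Il4i1 (-1.55), Gaa (-1.09), Socs1 (-0.99), Tnfaip3 (-0.99), Trib3 (-0.91), Klf2 (-0.84), Insr (-0.73), Nfkbie (-0.70), Ctss (-0.64) and Ppan (-0.58). Bcl2, Ccne1 and Wee1 are published targets of the family, and 11 of the 40 measured targets had a called positive interaction and 1 a negative one. The most variable group, the scrambled cells with IL-7, enters each of these values.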

How the results depend on the processing

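The count of higher genes, 3570, lay between 2739 and 3726 under the other scalings, filters and fits, and between 2165 and 3755 with 1 array left out. The count of lower genes, 3270, was 2147 with no filter on dim probes, 3973 after quantile normalization, 4015 with only the 4 arrays without IL-7, and 1250 to 3690 with 1 array left out. With no filter more genes are tested, and with 1 array left out fewer samples enter. In the other fits that lost calls the cause was not tested. The 241 genes called with IL-7 were 388 after normexp background correction, 82 with no filter, 432 with probes above background on all 8 arrays, and 38 to 1361 with 1 array left out. Without probes holding the shared letters they were 166.

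The replicate block, which pairs the groups by experiment, gave 3528 higher and 3295 lower genes without IL-7, of which 6330 were among the 6840 called without it. It gave 151 genes with IL-7 and 0 for the interaction, and among the genes named above it ended the call of Axin2 alone. The interaction count of 1124 was also 0 with no filter, 1715 with probes above background on all 8 arrays, and 0 to 1617 with 1 array left out.

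Of the 172 called genes named above, 145 kept their call under each alternative run for them and 27 lost it under at least 1, and 0 changed sign. Of those not called, H2-Aa gave -0.077 after normexp background correction and Il7r gave -0.017 in the deposited value table. With no filter on dim probes the median of the stromal markers was -0.15, against 0.32, since that setting tests 10 of them and not 2. Of the limits, 2 arrays a group, 1 line and a shared slide bear on every value. A change near background is at most a bound, and a probe reads 1 short stretch of a transcript.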
